A study of Mus musculus with 6 samples.

Results

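The UGT2B family of UDP-glucuronosyltransferases was followed in small intestinal crypts of mice that lack subunit 8 of the COP9 signalosome in the intestinal epithelium. The family was found by gene symbol, and 7 genes, each with 1 probe set, were measured among 19505 genes. They were Ugt2b1, Ugt2b34, Ugt2b35, Ugt2b36, Ugt2b37, Ugt2b38 and Ugt2b5. The family was selected on measured values, namely the genotype difference of Ugt2b5 in these same arrays, so the genotype differences of its members are given below as a description, without p-values.

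Total RNA of 3 CSN8ΔIEC and 3 CSN8fl/fl crypt samples was hybridised, 1 array per sample, to ask whether the loss of CSN8 alters antimicrobial peptide production. All 6 came from mice on a C57bl/6 background. CSN8ΔIEC denotes deletion in intestinal epithelial cells, per the genotype name, and CSN8fl/fl mice carry the floxed gene. The labels name no Cre driver and do not tie each sample to its own mouse, so p-values measure the spread between these samples, which may be technical in part. In both genotypes the labels give replicates 1 and 2 as female and aged 16 weeks, and replicate 3 as male and aged 10 weeks. The 3 Y-linked genes measured went against the sex labels in all 6 arrays, with signals of 2.81 to 4.06 in the arrays labelled male and of 7.5 to 10.1 in those labelled female. The labels are therefore cited below only as labels.

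Cops8, which encodes CSN8, had log2 signals of 7.68, 7.61 and 7.77 in CSN8ΔIEC crypts and 8.26, 8.22 and 8.10 in CSN8fl/fl crypts. All 3 CSN8ΔIEC arrays lay below all 3 CSN8fl/fl arrays, and the difference of −0.50 ± 0.11 did not pass the threshold of an adjusted p of 0.05 in limma's moderated test over all genes (adjusted p = 0.0865). A fit without dim probe sets called it (adjusted p = 0.0436). No source used here places the Cops8 probes inside or outside the deleted exons, so the signal may not check the genotype. Array pairs correlated at 0.976 to 0.993 over all probe sets, and CSN8fl/fl replicate 3 stood apart at 0.976 to 0.986 with the other arrays. Of crypt genes, Lyz1, the Paneth cell lysozyme, was at 12.91 ± 0.44 in CSN8ΔIEC and 13.42 ± 0.24 in CSN8fl/fl crypts (SD, n = 3 each).

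UDP-glucuronosyltransferases sit in the endoplasmic reticulum membrane and transfer glucuronic acid from UDP-glucuronate to lipophilic compounds, which makes them water-soluble and ready for export. The UGT2B enzymes act on steroids, bile acids, fatty acids and many drugs. In the gut they form part of the first-pass barrier, together with the enzymes that make UDP-glucuronate and the transporters that carry glucuronides out of the cell.

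The 7 genes lie side by side on mouse chromosome 5, in the order Ugt2b34, Ugt2b1, Ugt2b35, Ugt2b36, Ugt2b5, Ugt2b37 and Ugt2b38, and the only other coding gene between the first and the last is Ugt2a3, which encodes a related transferase. All 7 gene IDs matched RefSeq's gene table, and all 7 genes had a promoter sequence in RefSeq's set for GRCm38.p6. The 110 bases before each gene start are shown because they hold the longer stretches that some members share. In Ugt2b5, Ugt2b36, Ugt2b37 and Ugt2b38 they also hold a motif near the start. The motifs were chosen after the sequences and values were seen, so their spread over the members is a description only. Each is written 5′ to 3′ on the strand of its gene. Capitals mark the letters AGGTCA, the half-site of many nuclear receptors.
Ugt2b5, chr5:87140341-87140450, minus strand: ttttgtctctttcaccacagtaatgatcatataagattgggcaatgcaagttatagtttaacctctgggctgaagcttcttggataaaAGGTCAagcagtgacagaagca
Ugt2b38, chr5:87424204-87424313, minus strand: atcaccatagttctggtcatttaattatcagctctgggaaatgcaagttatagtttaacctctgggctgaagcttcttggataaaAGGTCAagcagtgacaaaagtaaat
Ugt2b37, chr5:87254789-87254898, minus strand: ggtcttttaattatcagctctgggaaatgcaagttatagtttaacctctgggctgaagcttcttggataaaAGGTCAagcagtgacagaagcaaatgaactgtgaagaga
Ugt2b36, chr5:87092556-87092665, minus strand: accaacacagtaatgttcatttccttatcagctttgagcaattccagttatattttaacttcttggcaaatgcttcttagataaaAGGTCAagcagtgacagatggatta
Ugt2b35, chr5:87000750-87000859, plus strand: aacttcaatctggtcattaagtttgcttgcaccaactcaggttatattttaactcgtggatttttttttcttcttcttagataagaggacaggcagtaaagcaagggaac
Ugt2b34, chr5:86906938-86907047, minus strand: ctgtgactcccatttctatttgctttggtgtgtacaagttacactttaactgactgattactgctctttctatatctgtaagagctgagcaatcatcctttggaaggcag
Ugt2b1, chr5:86926504-86926613, minus strand: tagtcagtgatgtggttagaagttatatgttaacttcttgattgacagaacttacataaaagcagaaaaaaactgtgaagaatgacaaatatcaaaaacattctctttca

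The letters AGGTCA stood 22 bases before the start in Ugt2b5, 25 in Ugt2b36 and Ugt2b38 and 39 in Ugt2b37, and 215 bases before the start in Ugt2b35. Of all 32851 promoter windows of the same 300 bases, 16.3% held it on either strand, and Ugt2b34 and Ugt2b1 did not hold it. The letters TGACNNNGC, the core of the antioxidant response element that NRF2 binds, were in none of the 7 windows and in 12.4% of all windows. An AP-1 type motif, TGANTCA, was found in Ugt2b1, Ugt2b35, Ugt2b37 and Ugt2b38 and in 7.81% of all windows. The 3 motifs were searched on both strands, and no match overlapped a match of another motif in these promoters. A letter match shows no binding, and the absence of one says only that these letters are not in the window.

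Some of the promoters share long stretches of sequence. Over the 250 bases before the start, the longest run of identical bases was 82 between Ugt2b37 and Ugt2b38, 68 between Ugt2b5 and Ugt2b37 and 62 between Ugt2b5 and Ugt2b38. Ugt2b36 shared runs of 22 to 24 bases with these 3 genes, and 14 with Ugt2b35. Ugt2b34 shared no run longer than 10 bases with any member and Ugt2b1 none longer than 11. The AGGTCA matches of Ugt2b5, Ugt2b37, Ugt2b38 and Ugt2b36 lie inside these shared runs and are not independent matches.

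**Figure D1:**
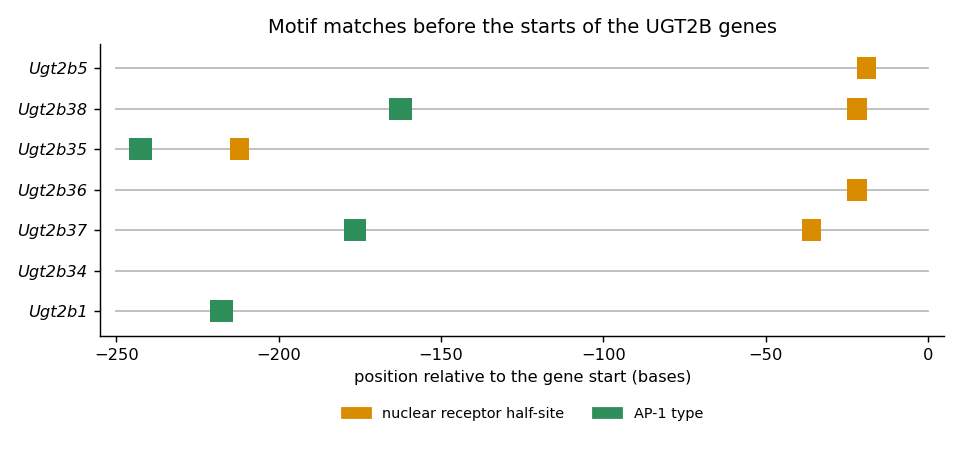
Position of motif matches in the 250 bases before the start of each UGT2B gene (x axis, bases relative to the gene start; 1 line per gene). Ugt2b5, Ugt2b36, Ugt2b37 and Ugt2b38 have a nuclear receptor half-site 22 to 39 bases before their start, Ugt2b35 has one 215 bases before it, and Ugt2b34 has no match.

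The question the genotype comparison answers for this family is which of its members had other transcript signals after loss of CSN8. Ugt2b5 showed the largest difference of the 7. Its log2 signals were 9.33, 9.20 and 8.69 in CSN8ΔIEC crypts and 6.49, 7.47 and 5.83 in CSN8fl/fl crypts. The groups were apart by 1.22 between the lowest CSN8ΔIEC and the highest CSN8fl/fl array. The CSN8fl/fl arrays were more spread, over 1.64, than the CSN8ΔIEC arrays, over 0.64, with replicate 2 the highest and replicate 3 the lowest of the CSN8fl/fl arrays. The means were 9.07 ± 0.34 and 6.59 ± 0.83 (SD, n = 3 each) in CSN8ΔIEC and CSN8fl/fl crypts, a difference of 2.48 ± 0.36 (SE) or 5.57-fold. Of its CSN8fl/fl arrays 1 of 3 was above 6.87, the median of the gene means, and a signal below that median follows a change in RNA less closely.

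Ugt2b38, whose promoter shares the run of 62 bases with that of Ugt2b5, had signals of 6.23, 6.78 and 6.13 in CSN8ΔIEC crypts and 4.88, 4.86 and 4.76 in CSN8fl/fl crypts. The CSN8fl/fl arrays were within 0.12 of each other, and CSN8ΔIEC replicate 2 was the highest. The difference was 1.55 ± 0.17, or 2.93-fold. All 6 arrays lay below the median of the gene means, 6.87.

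Ugt2b35, the 1 member transcribed from the other strand, had signals of 9.49, 9.13 and 9.33 in CSN8ΔIEC crypts and 7.73, 8.12 and 7.86 in CSN8fl/fl crypts. The groups were apart by 1.01, and both spread over at most 0.40. The difference was 1.41 ± 0.15, or 2.66-fold. Ugt2b36 had signals of 8.93, 8.73 and 8.36 in CSN8ΔIEC crypts and 7.80, 7.69 and 7.70 in CSN8fl/fl crypts. Here CSN8ΔIEC replicate 3 came closest to the CSN8fl/fl arrays, 0.56 above the highest of them. The difference was 0.95 ± 0.16, or 1.93-fold.

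Ugt2b37 was dim throughout, at 3.31, 3.80 and 3.45 in CSN8ΔIEC crypts and 2.94, 3.14 and 3.06 in CSN8fl/fl crypts. Its groups did not overlap but were only 0.17 apart, and the difference was 0.47 ± 0.15. The lowest signal of any probe set in any array was 2.3, so that Ugt2b37 lay near the bottom of the scale.

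The signals of Ugt2b34 and Ugt2b1 overlapped between the genotypes. Ugt2b34, the first gene of the cluster, had bright signals of 12.35, 12.41 and 12.20 in CSN8ΔIEC crypts and 12.14, 12.18 and 12.26 in CSN8fl/fl crypts. The difference was 0.13 ± 0.12, with a 95% interval of −0.13 to 0.39. The highest signal of any probe set was 14.1, and a bright probe set responds less to a change in RNA. Ugt2b1 was dim, at 3.70, 3.70 and 3.80 in CSN8ΔIEC crypts and 3.64, 3.72 and 3.79 in CSN8fl/fl crypts, and the difference was 0.02 ± 0.11 (95% interval −0.23 to 0.27). Overlap of the groups does not show that these transcripts were equal in both genotypes.

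**Figure D2:**
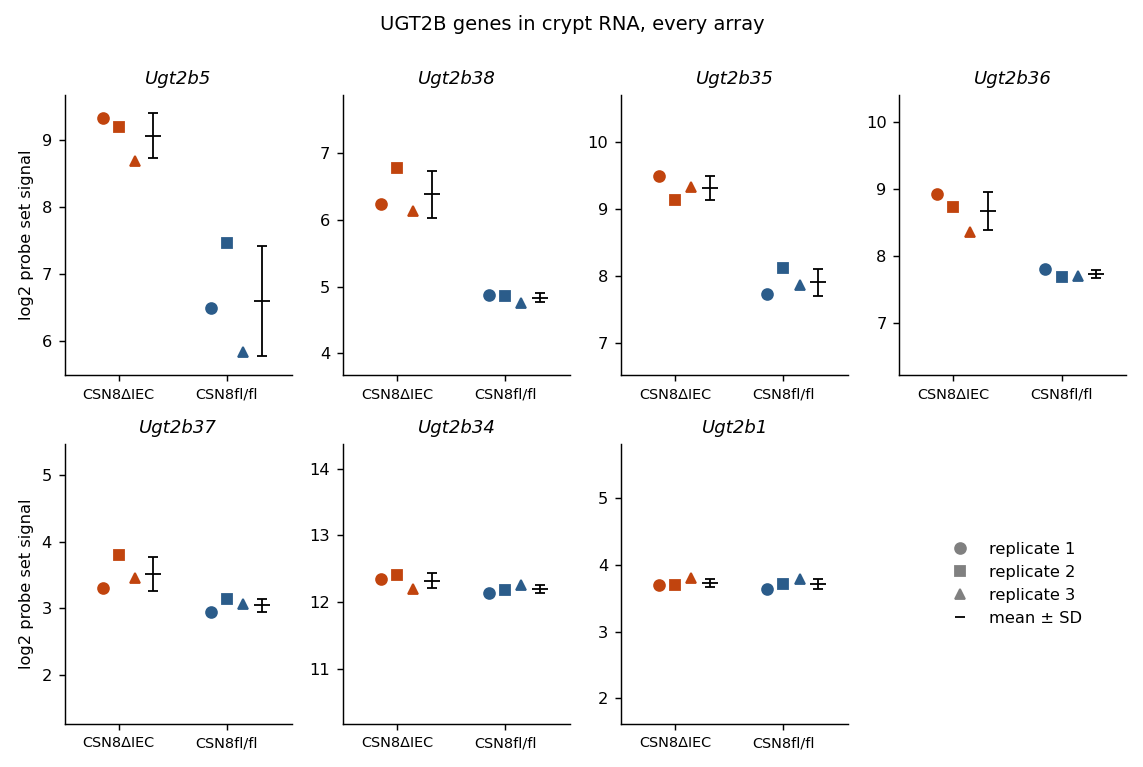
Log2 probe set signal (y axis, 4.2 log2 units high in every panel) of the 7 UGT2B genes in each CSN8ΔIEC and CSN8fl/fl array; bars are mean ± SD of 3 arrays. In 5 genes the 3 CSN8ΔIEC points lie above the 3 CSN8fl/fl points, and those of Ugt2b34 and Ugt2b1 overlap.

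Across the family, 5 of 7 genes had all CSN8ΔIEC arrays above all CSN8fl/fl arrays, beside 10.7% of all genes tested, and none had them all below (11.7% of all genes). In the limma fit over all genes 4 of 7, Ugt2b5, Ugt2b38, Ugt2b35 and Ugt2b36, were past the threshold upward, beside 0.374% of all genes, and none was past it downward (0.702% of all genes). The median difference was 0.95 over the 7 members and −0.011 over all genes. Since the contrast that singled out the family gave these counts, they are descriptions. Ugt2b5 was past the threshold without any 1 CSN8fl/fl array or without CSN8ΔIEC replicate 3, but not without CSN8ΔIEC replicate 1 or 2. Ugt2b36 was past it only without CSN8ΔIEC replicate 3 when arrays were left out in turn, and Ugt2b35 and Ugt2b38 whichever array was left out. Related members can share hybridisation signal, which was not separated here, although the 7 probe sets gave 7 distinct sets of values.

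**Figure D3:**
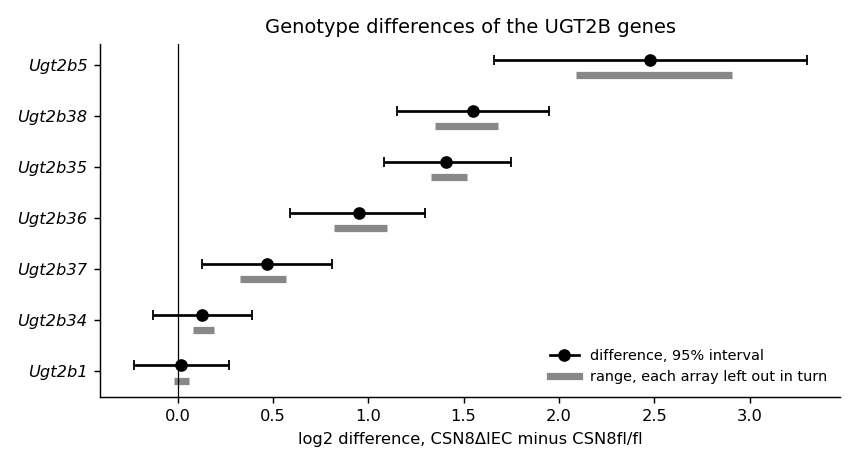
Log2 difference of CSN8ΔIEC minus CSN8fl/fl crypts (x axis) for each UGT2B gene; points and bars are the difference and its 95% interval from limma, and grey bars the range when each array was left out in turn. Differences run from 2.48 for Ugt2b5 to 0.02 for Ugt2b1, and the range for Ugt2b5 is 2.09 to 2.91.

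No array was the highest for the whole family. Among CSN8ΔIEC arrays, replicate 1 was the highest for Ugt2b5, Ugt2b35 and Ugt2b36 and replicate 2 for Ugt2b34, Ugt2b37 and Ugt2b38. Replicate 3 was the lowest for Ugt2b5, Ugt2b34, Ugt2b36 and Ugt2b38. Among CSN8fl/fl arrays, replicate 2 was the highest for Ugt2b5, Ugt2b35 and Ugt2b37.

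Labelled sex and age, an effect that the choice of the family did not use, passed the threshold for 0 of the 7 genes (limma, adjusted p from 0.778 to 0.984), beside 0.0154% of all genes. The 3 genes past it in the whole table were the Y-linked Eif2s3y, Kdm5d and Uty. At an unadjusted p under 0.05 there was 1 member, beside 1202 of all 19505 genes. It was Ugt2b5, with arrays labelled male of 10 weeks lower by 0.87 (log2 difference −0.87 ± 0.26, adjusted p = 0.778). Replicate 3 had the lowest Ugt2b5 signal in each genotype, 8.69 in CSN8ΔIEC and 5.83 in CSN8fl/fl crypts. The genotype difference of Ugt2b5 was 2.86 between the 2 arrays of 10 weeks and 2.29 between the arrays of 16 weeks. That of Ugt2b36 was 0.66 and 1.09. None of the 7 interactions passed the threshold (limma, adjusted p from 0.576 to 0.995; 0 at an unadjusted p under 0.05), nor did any gene in the table (0%), with 1974 genes at an unadjusted p under 0.05. With 1 array of 10 weeks per genotype, the spread in this test came from the arrays of 16 weeks.

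Over the 6 arrays, the signal of Ugt2b5 was compared with those of 1672 genes that spanned at least 1 log2 unit. The 5 most like it were Nqo1, Ddah1, Gsta3, Akr1b8 and Cbr3, with Pearson correlations of 0.994, 0.992, 0.992, 0.990 and 0.988. Nqo1 encodes a quinone reductase, Gsta3 a glutathione S-transferase, Akr1b8 an aldo-keto reductase, Cbr3 a carbonyl reductase and Ddah1 an enzyme that degrades asymmetric dimethylarginine. Nqo1 was at 10.75, 10.46 and 10.23 in CSN8ΔIEC crypts and 8.77, 9.20 and 8.08 in CSN8fl/fl crypts. As for Ugt2b5, the highest CSN8ΔIEC array was replicate 1, the highest CSN8fl/fl array replicate 2 and the lowest replicate 3. These correlations describe 6 arrays in 2 separate groups, so they include the genotype difference itself. Of the other members, Ugt2b35 had a correlation of 0.946 with Ugt2b5, Ugt2b38 of 0.921, Ugt2b36 of 0.910, Ugt2b37 of 0.806, Ugt2b34 of 0.625 and Ugt2b1 of −0.00699.

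**Figure D4:**
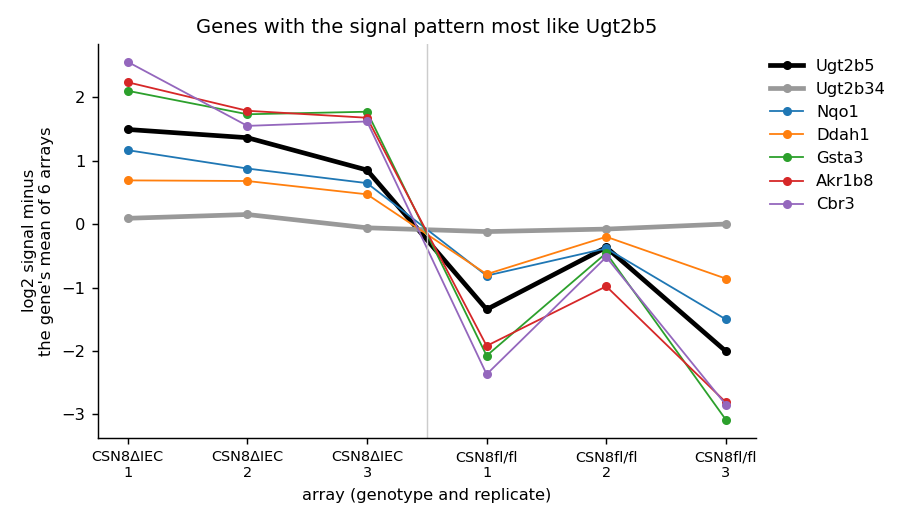
Log2 signal minus the mean of the gene over 6 arrays (y axis) for Ugt2b5, the 5 genes most like it and Ugt2b34, by array (x axis); lines only join the points of a gene. Ugt2b5 and the 5 genes are above their mean in the 3 CSN8ΔIEC arrays and lowest in CSN8fl/fl replicate 3, while Ugt2b34 stays near its mean.

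The donor UDP-glucuronate is made from glucose 1-phosphate. Of 6 genes for its supply, 1 rose (0.374% of all genes did) and 0 fell. The gene that rose was Ugdh, which encodes UDP-glucose dehydrogenase, the enzyme that forms UDP-glucuronate. It had signals of 12.01, 11.75 and 11.62 in CSN8ΔIEC crypts and 10.62, 10.87 and 11.01 in CSN8fl/fl crypts. All CSN8ΔIEC arrays were above all CSN8fl/fl arrays, and Ugdh rose 1.94-fold (log2 difference 0.96 ± 0.15, adjusted p = 0.0258). It did not pass without 5 of the 6 arrays in turn, all but CSN8fl/fl replicate 3. Nor did it pass with replicate number as a block (adjusted p = 0.0612) or with the arrays of 16 weeks alone (adjusted p = 0.0536). Its adjusted p lay between 0.00993 and 0.118 under the alternatives. Slc35d1, which encodes a transporter of UDP-glucuronate into the endoplasmic reticulum, had signals of 10.48, 10.39 and 10.09 in CSN8ΔIEC crypts and 9.68, 9.64 and 9.76 in CSN8fl/fl crypts, apart in every array, with a difference of 0.63 ± 0.13 that did not pass (adjusted p = 0.0719, with 0.0362 to 0.282 under the alternatives). With dim probe sets filtered out, and with trended robust moderation, 2 of the 6 genes rose, the other being Slc35d1. Ugp2, which makes UDP-glucose, differed by 0.15 ± 0.16 (adjusted p = 0.712).

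Among other UDP-glucuronosyltransferases, 4 of the 15 listed were measured, and the UGT1A genes were not analysed here. Of these 0 passed the threshold in limma, with 2 at an unadjusted p under 0.05 and a median difference of −0.19. The share of all genes at that unadjusted cut-off is not given here for genotype. Such counts of list genes, here and below, therefore have no background beside them and are descriptions only. Ugt2a3, the neighbour inside the cluster, had signals of 9.83, 10.38 and 9.82 in CSN8ΔIEC crypts and 10.58, 10.61 and 10.64 in CSN8fl/fl crypts. Its CSN8ΔIEC arrays lay below its CSN8fl/fl arrays, in contrast to the order in Ugt2b5, and the difference of −0.61 ± 0.16 did not pass (adjusted p = 0.133), except without CSN8ΔIEC replicate 2 (adjusted p = 0.0492, with 0.0492 to 0.451 under all settings tried). The promoters of Ugt2a1, Ugt2a2 and Ugt2a3 did not hold AGGTCA, which 16.3% of all windows held. Whether this motif bears on the signals was not tested. Gusb, the lysosomal β-glucuronidase that cleaves glucuronides, was at 8.09 ± 0.061 in CSN8ΔIEC and 7.74 ± 0.43 in CSN8fl/fl crypts (SD, n = 3 each; adjusted p = 0.447), and its groups overlapped.

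Of 6 exporters of conjugates, 2 rose and 0 fell (0.374% and 0.702% of all genes). With the arrays of 16 weeks alone, 0 of the 6 passed the threshold. Abcc3, which carries glucuronides across the basolateral membrane, had signals of 11.69, 11.19 and 11.52 in CSN8ΔIEC crypts and 10.36, 10.44 and 10.20 in CSN8fl/fl crypts and rose 2.19-fold (adjusted p = 0.0148). Leaving out CSN8ΔIEC replicate 1 or 3 ended the call (adjusted p = 0.0717 and 0.0545). Abcc1, another exporter of conjugates, was at 8.46, 8.20 and 8.59 in CSN8ΔIEC crypts and 7.68, 7.52 and 7.41 in CSN8fl/fl crypts and rose 1.84-fold (adjusted p = 0.0261). Leaving out CSN8fl/fl replicate 2 or 3 or CSN8ΔIEC replicate 1 or 3 ended the call (adjusted p of 0.0665 to 0.127). Abcc2, the exporter of the apical membrane, differed by 0.13 ± 0.19 (adjusted p = 0.792).

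**Figure D5:**
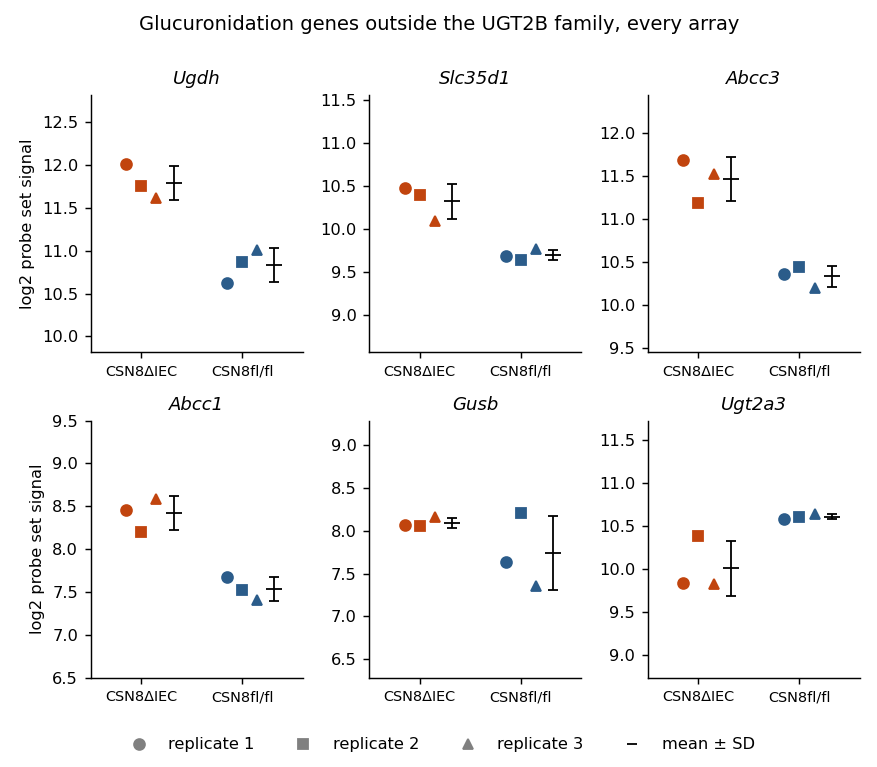
Log2 probe set signal (y axis, 3 log2 units high in every panel) of 6 genes of glucuronidation outside the UGT2B family in each CSN8ΔIEC and CSN8fl/fl array; bars are mean ± SD of 3 arrays. Ugdh, Slc35d1, Abcc3 and Abcc1 are higher in every CSN8ΔIEC array, Gusb overlaps and Ugt2a3 is lower.

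Regulators of conjugation genes, most of them transcription factors, were measured at the transcript. Of 20, 0 passed the threshold in limma, with 5 at an unadjusted p under 0.05 and a median difference of −0.07. Of these 5, 1 had all CSN8ΔIEC arrays above all CSN8fl/fl arrays (10.7% of all genes did), Mafg, with a difference of 0.43. The other 4 had them all below (11.7% of all genes did). These were Maf, Ppara, Rxra and Hnf4g, with differences of −0.63, −0.55, −0.35 and −0.3. Nfe2l2, which encodes NRF2, differed by 0.03 ± 0.14, Hnf4a, a nuclear receptor of enterocytes and liver, by 0.07 ± 0.11, Cdx2, the intestinal homeobox factor, by 0.01 ± 0.12 and Nr1i2, the pregnane X receptor, by −0.06 ± 0.17 (adjusted p from 0.804 to 0.969). Of 19 NRF2 targets 9 rose and 0 fell (0.374% and 0.702% of all genes), with a median of 0.58. They included Akr1b8, with a log2 difference of 3.81 ± 0.39 (limma adjusted p = 0.00581), and Ephx1, an epoxide hydrolase, up 3.20-fold (adjusted p = 0.0082). Gstm1, a glutathione S-transferase, was up 3.56-fold (adjusted p = 0.0113) and Cbr1, a carbonyl reductase, up 2.14-fold (adjusted p = 0.00996). Neither Gstm1 nor Cbr1 passed without CSN8ΔIEC replicate 1 (adjusted p = 0.0601 and 0.0535). With the arrays of 16 weeks alone Gstm1 did not pass (adjusted p = 0.0813). Without CSN8ΔIEC replicate 1, 4 of the 19 rose, and 7 to 9 did without any other 1 array. With the arrays of 16 weeks alone 4 rose. That list was chosen with results of these arrays known and is no independent evidence of its direction.

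In whole crypts, fewer cells of a type and less RNA per cell cannot be told apart. Enterocyte markers stand for the absorptive cells of the intestinal epithelium. They had 0 of 13 past the threshold in limma and a median difference of −0.09. The 3 at an unadjusted p under 0.05, Alpi, Treh and Lct, had lower means in CSN8ΔIEC crypts. The log2 summed signal was 16.31 to 16.68 in CSN8ΔIEC and 16.42 to 16.78 in CSN8fl/fl crypts. Bright probe sets, such as Anpep with a mean of 13.75, carry these sums and respond less to a change in RNA. Alpi, the intestinal alkaline phosphatase, was lower in every CSN8ΔIEC array by −1.08 ± 0.23 (adjusted p = 0.0681), and was called with dim probe sets filtered out, with trended robust moderation and without CSN8ΔIEC replicate 2 (0.0413 to 0.313 under all alternatives). Hepatocyte markers had 0 of 8 past it (2 at an unadjusted p under 0.05), with sums of 9.01 to 9.47 in CSN8ΔIEC and 9.22 to 9.42 in CSN8fl/fl crypts, and Alb, albumin, was at 5.77 ± 0.16 in CSN8ΔIEC and 5.70 ± 0.17 in CSN8fl/fl crypts (SD, n = 3 each; adjusted p = 0.849).

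Markers of other crypt cells also differed between the genotypes. The counts below stand beside 0.374% of all genes that rose and 0.702% that fell. Of the Paneth cell markers 5 of 9 fell, and their sums were 14.64 to 15.47 in CSN8ΔIEC and 16.16 to 16.18 in CSN8fl/fl crypts. The 5 were 1 without CSN8ΔIEC replicate 1 and 3 to 7 without any other 1 array, and the median difference of −1.05 lay between −0.94 and −1.28. The log2 differences were −2.67 for Mptx1, −2.22 for Nupr1, −1.96 for Mptx2 and −1.84 for Ang4, an angiogenin of Paneth cells. Of the tuft cell markers 4 of 7 fell, with sums of 8.93 to 9.13 in CSN8ΔIEC and 10.62 to 12.39 in CSN8fl/fl crypts. The 4 were 0, 1 and 2 without CSN8ΔIEC replicates 1, 2 and 3, 2 when CSN8fl/fl replicate 2 was left out, and 6 when replicate 1 or 3 of that genotype was. The genes were Dclk1, a kinase that marks tuft cells, at −2.72, Pou2f3, the transcription factor of the lineage, at −1.69, Siglecf at −3.12 and Rgs13 at −3.18. The fall of 2 of 7 goblet cell markers (sums of 15.18 to 15.28 in CSN8ΔIEC and 15.42 to 15.60 in CSN8fl/fl crypts) was left in 1 without CSN8fl/fl replicate 1 and in 0 without any other 1 array. These were Clca1, at −0.80, and Tff3, the trefoil peptide of goblet cells, at −0.65. Among 7 enteroendocrine markers 2 rose and 1 fell, with sums of 11.33 to 11.59 in CSN8ΔIEC and 11.46 to 11.54 in CSN8fl/fl crypts. Tac1, a tachykinin precursor, rose by 1.41 ± 0.20 (adjusted p = 0.0167) and passed under every alternative tried. Cck, cholecystokinin, rose by 0.79 ± 0.15 (adjusted p = 0.0487, with 0.0276 to 0.229 under the alternatives) and passed, when arrays were left out in turn, only without CSN8ΔIEC replicate 2. Sst, somatostatin, was lower by −1.10 ± 0.15 (adjusted p = 0.0164) and did not pass without CSN8ΔIEC replicate 1 or 3 (0.0875 and 0.0514). Of 7 stromal and endothelial markers 1 rose, Acta2, smooth muscle actin, by 0.66 ± 0.12 (adjusted p = 0.0366), but not without any 1 array (0.0524 to 0.157); its signals were all below 6.87, and the list's sums were 9.09 to 9.26 in CSN8ΔIEC and 8.95 to 9.08 in CSN8fl/fl crypts. The part of these shifts in the UGT2B differences was not tested. Leukocyte markers had 0 of 7 past the threshold (2 at an unadjusted p under 0.05), with sums of 12.37 to 12.83 in CSN8ΔIEC and 13.16 to 13.39 in CSN8fl/fl crypts. Lyz2, the brightest, weighs most in these sums, with means of 11.90 in CSN8ΔIEC and 12.63 in CSN8fl/fl crypts. Within each genotype it ranked the arrays in the same order as Lyz1, the Paneth cell lysozyme. Which cells gave the Lyz2 signal, and whether it shares hybridisation signal with Lyz1, was not tested. The sums are therefore no clean measure of leukocytes. Ptprc, Cd3e and Lyz2 were lower in every CSN8ΔIEC array, as 11.7% of all genes were, and Cd8a, Gzma, Cd79a and Itgam overlapped. The groups were apart by 0.48 for Ptprc but only by 0.03 for Cd3e and 0.02 for Lyz2. Stem cell markers had 0 of 5 past the threshold and genes of the distal small intestine 0 of 4. At an unadjusted p under 0.05 there were 3 and 1, with no share of all genes at that cut-off to set beside them. When arrays were left out in turn, 1 stem cell marker, Ascl2, rose without CSN8fl/fl replicate 1, 1 hepatocyte marker, Cyp2e1, rose without CSN8ΔIEC replicate 2, and 1 leukocyte marker, Cd79a, fell without CSN8fl/fl replicate 3. Of 6 genes of the proximal small intestine 1 fell, Cybrd1, and leaving out replicate 1 or 2 of CSN8ΔIEC ended that call (limma adjusted p = 0.1 and 0.0658). Onecut2, of the same list, was higher by 1.09 ± 0.22 and did not pass (adjusted p = 0.0576, with 0.0127 to 0.315 under the alternatives). It rose with dim probe sets filtered out, with trended robust moderation and without CSN8ΔIEC replicate 2. No defining marker is listed at 0, since the signals are on a log2 scale with a background above it.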

How the data were processed

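Crypt RNA of 6 samples was measured on 1 array each. The authors deposited log2 signals per probe set, made with RMA (background correction, quantile normalisation and probe summarisation) and Partek 6.6, per the submitters' processing notes. No source used here gives the RMA settings or the annotation's genome build. Arrays have no read depth, and their number limits the precision.

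Of 22206 probe sets, 19572 had 1 gene symbol in the platform annotation, 0 several, and 2634 are unnamed here. For 55 genes with several probe sets the brightest by mean was used, which left 19505 genes. Array medians differed by at most 0.058. Genotypes were compared as CSN8ΔIEC minus CSN8fl/fl in R 4.3.3 with limma 3.58.1 (lmFit, eBayes; 8.85 total degrees of freedom), two-sided, with Benjamini-Hochberg adjustment over all genes at 0.05. Further models added labelled sex and age, and their interaction with genotype. The fit was tested on simulated arrays. Differences are ± SE, group means ± SD. Summed list signals are log2 of the sum of the linear signals. Promoters came from RefSeq, GRCm38.p6, 250 bases before to 50 after the start. Motifs were chosen after the sequences were read.

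The family members, gene lists and tests were chosen with earlier results of these data known. The genes named are the members, Cops8, a set of pathway genes, up to 4 called members of each list, and the 5 most like Ugt2b5, without predicted genes, Rik symbols, microRNAs and snoRNAs; other genes of the lists are named as examples chosen after their values were seen. Alternatives were median centring, a filter on dim probe sets (mean above 6.87), averaged probe sets, trended robust moderation, a replicate block, labelled sex and age as covariate, arrays of 16 weeks only, and each array left out.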

Additional observations from a re-analysis of the deposited data

How the results depend on the processing

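The members' differences moved by less than 1 SD of their replicates in 87 of 88 recomputations. The exception was Ugt2b34, at 0.22 among the arrays of 16 weeks against 0.13 over all arrays. Most of these recomputations could not have moved a difference that far, so the count is no measure of robustness. Averaged probe sets, the dim filter, trended moderation, the block and the covariate leave the members' differences as they are. Leaving out 1 of 3 arrays can hardly shift a group mean by 1 SD. The count of 4 UGT2B genes past the threshold was 2 to 4 when each array was left out, 2 without CSN8ΔIEC replicate 1 or 2, and 3 with dim probe sets filtered out, which removes Ugt2b38 and which Ugt2b5 passed through its CSN8ΔIEC arrays (3 of 3 above 6.87, against 1 of 3 CSN8fl/fl arrays), or with the arrays of 16 weeks alone, where Ugt2b35 did not pass. The 210 genes past the threshold in the table were 97 with the arrays of 16 weeks alone and 41 to 228 when each array was left out, with 41 without CSN8ΔIEC replicate 1, 109 without CSN8fl/fl replicate 2, 122 without CSN8ΔIEC replicate 2 and 114 without CSN8ΔIEC replicate 3. The 3 genes past it for labelled sex and age were 3 to 18 when each array was left out, with 18 without CSN8ΔIEC replicate 3, and the 0 for the interaction was 1 with trended robust moderation (8 alternatives). No UGT2B gene passed for labelled sex and age under its 10 alternatives. The interaction could not be fitted without either array of 10 weeks. Of 465 recomputed values for 36 other named genes, 373 kept their side of the threshold, 90 lost a call, 2 gained one and 0 changed direction in a called gene. Deviations of same-numbered arrays from their group means correlated at 0.12, −0.02 and 0.04 for replicates 1, 2 and 3. Arrays with different numbers correlated at −0.15 to 0.10. With 3 arrays per genotype, these values cannot settle whether the numbers pair the samples. Replicate 3 is labelled 10 weeks in both genotypes. With replicate number as a block, 202 genes and the same 4 UGT2B genes were past the threshold.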

Other observations

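Sulfation is the other main route by which gut epithelium conjugates hydroxylated compounds. Of 9 sulfotransferase and sulfate donor genes, 0 passed the threshold in limma (4 at an unadjusted p under 0.05), with a median difference of −0.14. Sult1a1, a phenol sulfotransferase, had signals of 6.33, 5.99 and 6.23 in CSN8ΔIEC crypts and 5.60, 4.88 and 5.57 in CSN8fl/fl crypts, apart in every array but below the median of the gene means, and its difference of 0.83 ± 0.20 did not pass (adjusted p = 0.104). Sult1b1 differed by −0.52 ± 0.21 (adjusted p = 0.298) and Sult2b1, a sterol sulfotransferase, by −0.59 ± 0.20 (adjusted p = 0.211).

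Genes induced through other xenobiotic receptors, most of them cytochrome P450 genes, were tested as 2 further lists. Of 7 targets of the receptors PXR and CAR, 0 passed the threshold in limma (2 at an unadjusted p under 0.05), with a median difference of −0.26. Cyp3a11, the main intestinal target of PXR, was at 10.95 ± 0.37 in CSN8ΔIEC and 11.25 ± 0.18 in CSN8fl/fl crypts (SD, n = 3 each; limma adjusted p = 0.498), and Cyp2b10, the target of CAR, differed by −0.86 ± 0.24 (adjusted p = 0.152, with 0.0166 to 0.438 under the alternatives) and was called without CSN8ΔIEC replicate 2. Of 5 targets of the aryl hydrocarbon receptor, 0 passed it (0 at an unadjusted p under 0.05), and Cyp1a1 was at 4.96 ± 0.15 in CSN8ΔIEC and 5.09 ± 0.47 in CSN8fl/fl crypts (adjusted p = 0.814). Whether these lists differ from the UGT2B genes in their response was not tested.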
